A study of Homo sapiens with 16 samples.

Results

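The HOXA genes are a cluster of homeobox genes on chromosome 7, and 9 of them, HOXA2, HOXA3, HOXA4, HOXA5, HOXA6, HOXA7, HOXA9, HOXA10 and HOXA11, are described here across 4 treatments of a leukaemia line. They were taken by symbol, through their Ensembl gene IDs, from a table of 22445 genes, and all 9 passed the filter on low values that left 22331 genes for testing. HOXA13, at the posterior end of the same cluster, also had a row and is given as an outer neighbour. The cells were Molm14, an acute myeloid leukaemia line with a rearrangement of KMT2A, and total RNA was sequenced from 4 libraries in each of 4 groups. DMSO cells received the solvent alone, iDOT1L cells received EPZ5676, which inhibits DOT1L, at 0.16 uM, iEZH2 cells received GSK126, which inhibits EZH2, at 0.3 uM, and Combo cells received both at these doses. Treatment lasted 7 days, with medium and compounds renewed on day 4, and each compound was used at 1 dose and 1 time in 1 line. The labels do not say whether the 4 libraries of a group came from separate cultures, so p-values speak of the spread among these libraries alone.

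HOX genes encode transcription factors that give cells their position along the body axis, and their order on the chromosome follows the order of the body regions they pattern. In blood, the HOXA genes are active in stem and progenitor cells and are turned down as cells mature. KMT2A fusion proteins keep HOXA9 and its neighbours on in leukaemia, where DOT1L, the methyltransferase for H3K79, is recruited to their gene bodies. EZH2 is the catalytic subunit of Polycomb repressive complex 2, which places H3K27 methylation on silent HOX genes. HOX proteins bind DNA together with cofactors of the TALE class, the PBX and MEIS proteins.

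The 9 members and HOXA13 span chr7:27100354-27200106 (GRCh38, GENCODE release 29), a stretch of 99.8 kb, and all lie on the minus strand. HOXA3 (ENSG00000105997, chr7:27106184-27152581) has the longest annotated span, and it covers those of HOXA4 (ENSG00000197576, chr7:27128507-27130799), HOXA5 (ENSG00000106004, chr7:27141052-27143668) and HOXA6 (ENSG00000106006, chr7:27145396-27150603). HOXA9 (ENSG00000078399, chr7:27162435-27175180) overlaps HOXA10 (ENSG00000253293, chr7:27170591-27180261). HOXA2 (ENSG00000105996, chr7:27100354-27102811), HOXA7 (ENSG00000122592, chr7:27153716-27157936) and HOXA11 (ENSG00000005073, chr7:27181510-27185223) overlap no other HOXA span. Of the 31-base words in HOXA7 transcripts, 62.2% also occur in the antisense RNA HOXA-AS3. The share with any other gene was 42.3% for HOXA4, 37.0% for HOXA6, 29.8% for HOXA11, 24.5% for HOXA10, 24.3% for HOXA9 and 14.6% for HOXA3. HOXA2 shared none and HOXA5 0.358%. Words shared with a gene that has a row in the table came to at most 2.27%, for HOXA6, so most of the shared words lay in RNAs without a row there, such as HOXA-AS3, whose levels were not analysed here. The sources used here do not say whether the libraries kept strand information, so reads of HOXA7, HOXA4, HOXA6, HOXA11, HOXA10, HOXA9 and HOXA3 cannot be told apart from those of their overlapping partners, and these levels are uncertain to that extent.

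**Figure D1:**
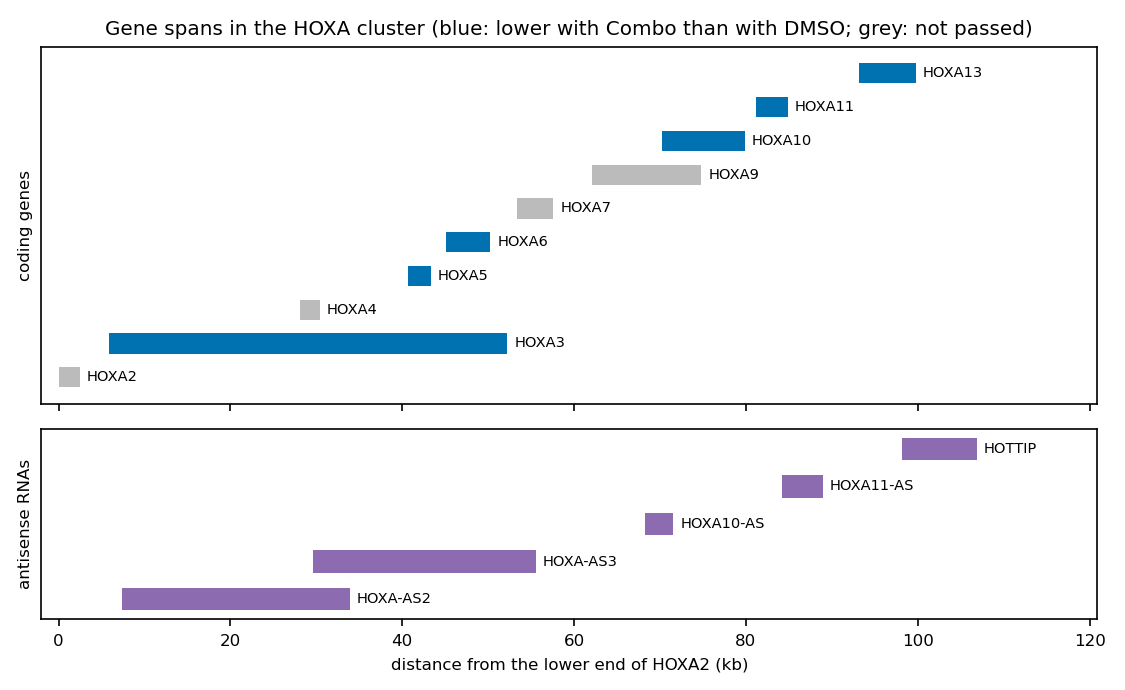
Spans of the 9 members and HOXA13 (upper panel, coloured blue where the gene was lower with Combo than with DMSO at an adjusted p under 0.05, grey where it did not pass) and of 5 antisense RNAs (lower panel), against the distance in kb from the lower end of HOXA2. HOXA2, HOXA4, HOXA7 and HOXA9 are grey. The span of HOXA-AS3 covers those of HOXA5 and HOXA6 and parts of those of HOXA3, HOXA4 and HOXA7.

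The 250 bases upstream of the start of 4 members are shown, because HOXA3, HOXA6 and HOXA11 fell with Combo and HOXA9 did not pass there. They are RefSeq sequences of GRCh38.p14, written 5′ to 3′ on the minus strand. Capitals mark CCAAT and TATAAA, 2 elements common in promoters, on either strand (ATTGG and TTTATA on the other). The windows are chr7:27152584-27152833 for HOXA3, chr7:27147775-27148024 for HOXA6, chr7:27165538-27165787 for HOXA9 and chr7:27185233-27185482 for HOXA11, and none of them overlaps an annotated UTR. The HOXA3 window overlaps an exon of HOXA-AS3, and the HOXA11 window an exon of HOXA11-AS, both antisense RNAs.
HOXA3: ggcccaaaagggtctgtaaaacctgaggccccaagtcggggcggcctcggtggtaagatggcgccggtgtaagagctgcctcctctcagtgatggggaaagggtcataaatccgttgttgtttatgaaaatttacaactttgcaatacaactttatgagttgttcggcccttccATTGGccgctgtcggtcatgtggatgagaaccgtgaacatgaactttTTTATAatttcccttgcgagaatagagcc
HOXA6: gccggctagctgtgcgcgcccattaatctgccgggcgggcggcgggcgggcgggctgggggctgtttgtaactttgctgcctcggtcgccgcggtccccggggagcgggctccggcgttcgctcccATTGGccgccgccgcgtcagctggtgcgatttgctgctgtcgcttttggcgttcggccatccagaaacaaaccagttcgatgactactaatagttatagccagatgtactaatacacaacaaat
HOXA9: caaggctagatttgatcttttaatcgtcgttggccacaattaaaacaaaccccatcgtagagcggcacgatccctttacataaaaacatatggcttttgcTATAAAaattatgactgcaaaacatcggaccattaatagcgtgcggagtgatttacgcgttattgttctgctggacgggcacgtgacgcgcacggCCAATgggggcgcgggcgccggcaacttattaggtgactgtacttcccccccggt
HOXA11: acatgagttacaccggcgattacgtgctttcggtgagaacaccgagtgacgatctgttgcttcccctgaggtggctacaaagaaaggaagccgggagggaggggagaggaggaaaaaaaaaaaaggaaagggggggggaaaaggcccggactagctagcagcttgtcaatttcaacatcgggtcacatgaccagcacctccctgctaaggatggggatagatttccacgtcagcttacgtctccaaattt

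RefSeq windows were at hand for 8 of the 9 members, all but HOXA5. Those of HOXA2, HOXA4, HOXA7 and HOXA10 overlap an annotated UTR of their own gene. Those of HOXA6, HOXA7, HOXA9 and HOXA10 lie within the annotated span of their own gene, so not all are sequence outside the gene. CCAAT stood in 7 of the 8, HOXA11 being the exception, against 33% of 27305 windows of the same length upstream of all genes. TATAAA stood in 3 (HOXA3, HOXA9 and HOXA10) against 11.1% of all windows. The MEIS motif TGACAG stood in the windows of HOXA2 and HOXA4 (13.1% of all), and the HOX-PBX site TGATNNAT in that of HOXA2 (6.69% of all), with both strands searched and 0 overlapping matches of different motifs. CG pairs numbered from 8 (HOXA2) to 28 (HOXA7) in a window, with 27 for HOXA6, 26 for HOXA4, 20 for HOXA9, 19 for HOXA10 and 11 each for HOXA3 and HOXA11, against a median of 11 over all windows. These matches are descriptions of the letters in these windows.

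Read totals estimated from the steps between low values were 20.7 to 27.2 M per library, and no library was a copy of another, with Pearson correlations of 0.957 to 0.986 over the 120 pairs. Levels below are normalised counts, which the deposited log2 values were turned back into, and they are relative to the RNA of each library. As these are bulk samples, fewer cells of a type and less RNA per cell cannot be told apart. Without pairing, the targets' own mRNAs passed in neither comparison of a compound with DMSO, with DOT1L at 6795.5 ± 101.0 in DMSO and 6499.9 ± 860.8 with iDOT1L, and EZH2 at 1906.0 ± 220.8 in DMSO and 2266.8 ± 284.5 with iEZH2 (mean ± SD, n = 4). With the replicate number as a pairing term EZH2 was called higher with iEZH2 (0.25 ± 0.12 on the log2 scale, limma adjusted p = 0.0166 against 0.341). All 10 myeloid markers passed the filter on low values, though CD14 averaged only 2.19 (Combo) to 5.06 (iEZH2) normalised counts. Summed erythroid markers (2 of 4 in the table) stayed at or under 6.25 and T cell markers (2 of 4) at or under 45.2 normalised counts in every library. Summed epithelial markers (3 of 4) ran from 185.5 to 605.0, with KRT8 alone at 280.5 ± 126.3 in DMSO.

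Per kilobase of the longest annotated coding transcript, HOXA10 and HOXA9 were the most abundant members in each of the 4 groups. In DMSO the level per kb was 958.9 ± 33.6 for HOXA10, 776.5 ± 67.9 for HOXA9 and 480.6 ± 36.1 for HOXA11 (mean ± SD, n = 4). The middle of the order held HOXA5 at 192.8 ± 18.6, HOXA7 at 141.7 ± 15.1, HOXA6 at 131.5 ± 23.5 and HOXA3 at 118.5 ± 29.7 per kb. HOXA4, at 51.2 ± 11.1, and HOXA2, at 14.3 ± 2.20, were the least abundant. The libraries of HOXA7 overlapped those of HOXA6, and those of HOXA6 overlapped those of HOXA3, while all other neighbours in this order were apart in DMSO. With Combo, HOXA7 stood above HOXA5 at 165.0 ± 11.4 against 89.8 ± 14.9 per kb, without overlap. The order between genes depends on the transcript assumed. Over the shortest coding transcript, in DMSO, HOXA9 came to 2007.1 and HOXA10 to 1551.9 per kb. There HOXA3, at 799.7, stood above HOXA11, at 516.1, and HOXA7, at 488.7, already stood above HOXA5, at 192.8.

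**Figure D2:**
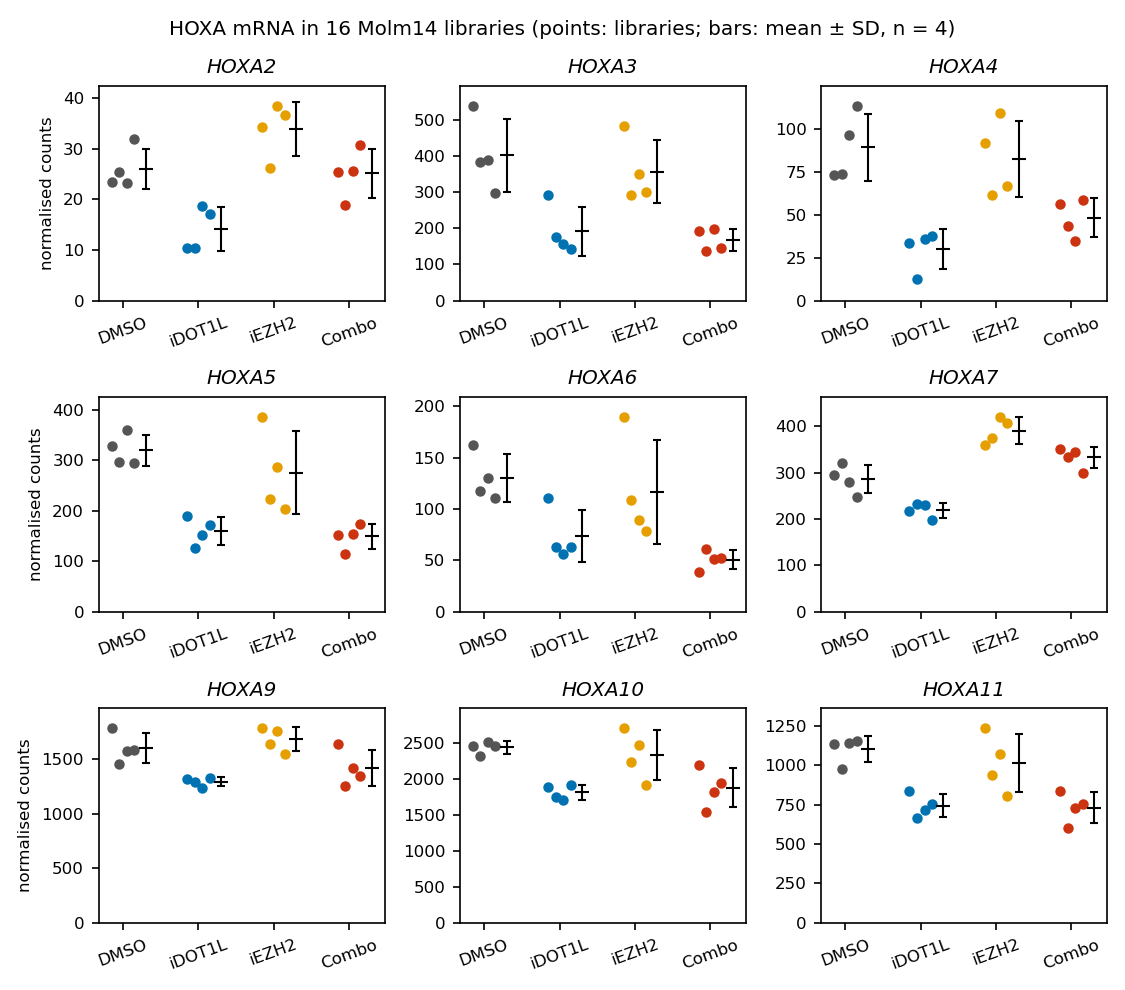
Normalised counts (vertical axis, from 0) of the 9 members in each of the 16 libraries, by treatment. Points are libraries in the order 1 to 4 and bars are the mean ± SD of 4. HOXA7 is lowest with iDOT1L and highest with iEZH2, and HOXA3 and HOXA5 are low wherever EPZ5676 was present.

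In the comparison of iDOT1L with DMSO, which asks what inhibition of DOT1L does to these genes, all 9 members were lower on average, HOXA4 most. The fall passed for 6 of 9 members (HOXA3, HOXA4, HOXA5, HOXA7, HOXA10 and HOXA11) and none rose, while 3.17% of all genes tested were called lower. Levels were read as the difference in log2 of the normalised count plus 1, with limma over all 22331 genes and Benjamini-Hochberg adjustment at 0.05. With the replicate number as a pairing term, 9 of 9 were called lower, against 6.53% of all genes. A filter at a mean normalised count of at least 10 also gave 9 (HOXA2 0.0331, HOXA6 0.0466 and HOXA9 0.0344 in limma). The median of the 9 was -0.85 and that of all genes 0.009. In 8 of 9 members the highest iDOT1L library lay below the lowest DMSO library, against 6.42% of all genes. The exception was HOXA6.

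Among the anterior genes, HOXA2, which patterns the hindbrain and the tissues of the second pharyngeal arch, had few reads. It stood at 23.4, 25.3, 23.3 and 31.8 in the DMSO libraries and at 10.4, 10.4, 18.7 and 17.1 with iDOT1L. The groups did not overlap, yet the difference of -0.86 ± 0.26 (SE) missed the threshold (limma adjusted p = 0.0504). It was called with pairing (0.0188) and in 1 of the 8 refits that dropped a library, without iDOT1L 3 (0.0434, highest of the 8 0.152). HOXA3, needed for the thymus and parathyroid, stood at 539.3, 383.2, 389.8 and 296.7 in DMSO and at 291.4, 174.8, 156.6 and 141.5 with iDOT1L. Library 1 was the highest of its group in both, and every iDOT1L library lay below every DMSO library. HOXA3 fell to 47.5% of DMSO (-1.10 ± 0.22, adjusted p = 0.00455). HOXA4, which patterns the neck vertebrae, stood at 73.3, 73.9, 96.7 and 113.6 in DMSO and at 33.7, 12.8, 35.7 and 37.9 with iDOT1L. It fell to 33.6% of DMSO (-1.63 ± 0.30, adjusted p = 0.00202), and 3 of the iDOT1L libraries lay close together with iDOT1L 2 well below them.

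Among the central genes, HOXA5, which acts in the lung and the axial skeleton, stood at 327.8, 296.9, 359.6 and 293.4 in DMSO and at 188.9, 125.4, 152.1 and 171.8 with iDOT1L. The groups were far apart, and the mean fell from 319.4 ± 30.9 to 159.6 ± 27.3 (-1.01 ± 0.18, limma adjusted p = 0.00193). HOXA6, a paralogue of HOXB6 and HOXC6 that acts in the trunk, stood at 162.7, 117.4, 129.9 and 110.4 in DMSO and at 110.9, 63.3, 56.4 and 63.3 with iDOT1L. Library iDOT1L 1 reached into the range of DMSO while the others lay below it. The difference of -0.85 ± 0.26 did not pass (adjusted p = 0.0566). It was called with pairing (0.0188) and in 1 of the 8 refits, without iDOT1L 1 (0.0161, highest of the 8 0.173). HOXA7, which is often expressed along with HOXA9 in leukaemia with KMT2A fusions, stood at 294.1, 321.2, 280.3 and 248.0 in DMSO and at 216.6, 231.5, 229.3 and 196.9 with iDOT1L. It fell by less, to 76.5% of DMSO (-0.38 ± 0.11, adjusted p = 0.0399). This call failed in 7 of the 8 refits that dropped a library, DMSO 4 being the exception (highest adjusted p 0.129), and also in a fit of these 2 groups alone (0.0929) and with recentred libraries (0.0515), and it held with pairing (0.0148).

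Among the posterior genes, HOXA9, which expands blood progenitors and drives leukaemia with its cofactor MEIS1, stood at 1788.5, 1450.6, 1577.3 and 1582.2 in DMSO. With iDOT1L it stood at 1317.9, 1285.7, 1238.3 and 1330.2. Every iDOT1L library lay below every DMSO library, and the mean came to 80.8% of DMSO. The difference of -0.30 ± 0.09 did not pass (limma adjusted p = 0.0521). It was called with pairing (0.00623) and in 1 of the 8 refits, without DMSO 2 (0.0407, highest of the 8 0.166). HOXA10, another regulator of blood progenitors, stood at 2453.1, 2314.9, 2514.7 and 2463.1 in DMSO and at 1886.1, 1743.1, 1704.8 and 1916.6 with iDOT1L. It fell to 74.4% of DMSO (-0.43 ± 0.11, adjusted p = 0.0211), a call lost without DMSO 1, 3 or 4 or iDOT1L 2 or 3 (highest adjusted p 0.0747) and kept with pairing (0.00343). HOXA11, known from the limb, kidney and uterus, stood at 1137.3, 979.1, 1140.9 and 1154.6 in DMSO and at 838.8, 665.9, 714.4 and 756.8 with iDOT1L. It fell to 67.5% of DMSO (-0.57 ± 0.13, adjusted p = 0.00824), with DMSO 2 below the other DMSO libraries and still above all 4 of iDOT1L.

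The 3 posterior members together held 80.4% ± 1.56 of the normalised counts of the 9 members in DMSO and 84.9% ± 1.66 with iDOT1L, not adjusted for length. The summed counts of the 9 were 6392.0 ± 353.4 in DMSO and 4536.5 ± 283.2 with iDOT1L. Myeloid markers moved with this comparison: summed over the 10 markers the libraries ran from 19956.5 to 21817.4 in DMSO and from 28215.5 to 34697.7 with iDOT1L. Of the 10, MPO and LYZ were called higher and ITGAM lower (a call lost in 6 of 8 refits), and pairing added CSF1R as higher (0.00481). The other 6 passed in neither fit. Summed B cell markers (4 of 4 in the table) ran from 1002.2 to 1422.9 in DMSO and from 684.5 to 890.8 with iDOT1L, where CD79A was called higher (lost without iDOT1L 3, limma adjusted p = 0.0522) and PAX5 lower (lost in 6 of 8 refits, highest 0.12). The part of these cell markers in the HOXA result was not tested.

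In the comparison of iEZH2 with DMSO, which asks what inhibition of EZH2 does, HOXA7 rose and no other member passed. Of all genes tested, 1.3% were called higher and 2.05% lower, and HOXA7 was also the single member with an unadjusted p under 0.05 in limma, against 15.7% of all genes. HOXA7 stood at 359.7, 373.9, 421.2 and 407.6 with iEZH2, and each of these libraries lay above the highest of DMSO, as did 3.67% of all genes. Its mean came to 136.6% of DMSO (0.45 ± 0.11, limma adjusted p = 0.0243, or 0.00617 with pairing, where 3.87% of all genes were called higher). The call was lost without DMSO 1, 3 or 4 or without iEZH2 3 or 4 (highest adjusted p 0.0981), and in a fit of these 2 groups alone.

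HOXA2 stood at 34.2, 26.2, 38.5 and 36.6 with iEZH2, overlapping DMSO (0.37 ± 0.26, adjusted p = 0.53). HOXA9 stood at 1782.7, 1634.0, 1758.4 and 1548.9, within the range of DMSO (0.07 ± 0.09, adjusted p = 0.764). HOXA10 stood at 2714.0, 2237.4, 2468.0 and 1908.4, on both sides of the DMSO range. HOXA3, HOXA4, HOXA5, HOXA6, HOXA10 and HOXA11 differed from DMSO by -0.07 (HOXA10) to -0.26 (HOXA5) on the log2 scale, and the median of the 9 was -0.13. The spread between iEZH2 libraries was wide for several members: HOXA6 ranged from 78.4 to 190.2, HOXA5 from 204.1 to 386.3 and HOXA11 from 808.0 to 1241.1. In HOXA3, HOXA5, HOXA6, HOXA9, HOXA10 and HOXA11 the highest of the 4 was library iEZH2 1. The SE was 0.26 for HOXA6 against 0.11 for HOXA7, so a difference of the size seen for HOXA7 was not detectable in HOXA6 at this spread.

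**Figure D3:**
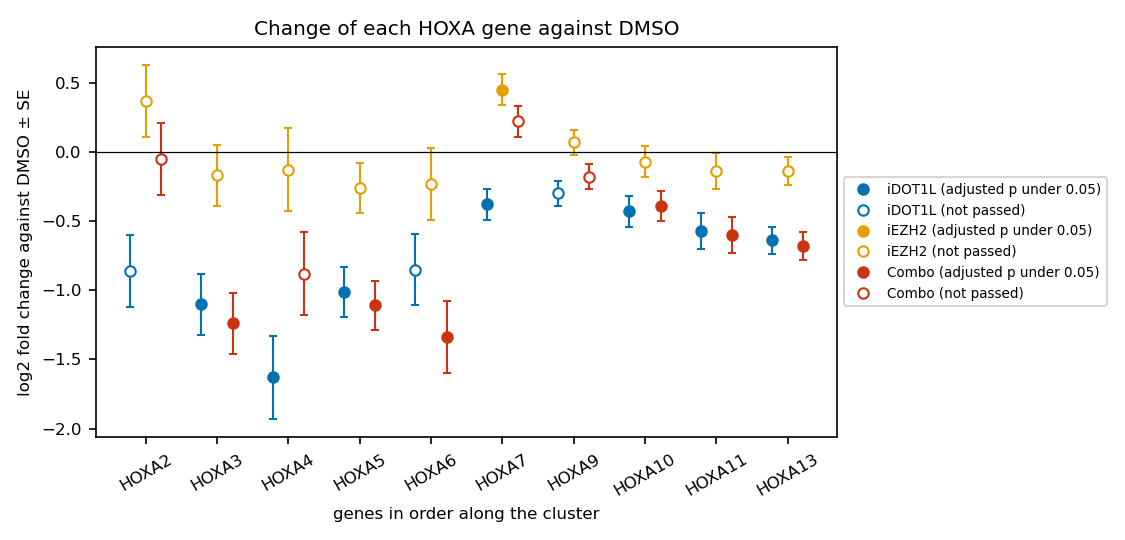
Log2 fold change against DMSO (vertical axis, ± SE from limma) of the 9 members and HOXA13 in their order along the cluster, for iDOT1L, iEZH2 and Combo. Filled points passed at an adjusted p under 0.05. HOXA7 is the 1 filled point above 0, and HOXA9 has the smallest differences among the posterior genes with iDOT1L and Combo.

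In the comparison of Combo with DMSO, which asks what both compounds together do, HOXA3, HOXA5, HOXA6, HOXA10 and HOXA11 fell, HOXA4 narrowly missed, and HOXA2, HOXA7 and HOXA9 did not pass. Thus 5 of 9 members were called lower and none higher, while 8.8% of all genes were called lower and 7.22% higher. In 6 members (those 5 and HOXA4) the highest Combo library lay below the lowest of DMSO, against 10.3% of all genes. The median of the 9 was -0.60 and that of all genes 0.028. The summed counts of the 9 were 4796.4 ± 563.1, of which the 3 posterior genes held 83.8% ± 1.07.

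HOXA3 stood at 192.8, 135.8, 196.7 and 145.2 with Combo, or 41.7% of DMSO (-1.24 ± 0.22, limma adjusted p = 0.000649). HOXA5 stood at 151.4, 114.9, 154.5 and 174.3, or 46.6% of DMSO (-1.11 ± 0.18, adjusted p = 0.000316). HOXA6 stood at 38.4, 60.6, 51.6 and 52.5, or 39.0% of DMSO (-1.34 ± 0.26, adjusted p = 0.00116). These 3 genes had the largest falls among those called, and none of their Combo libraries came near the DMSO range. HOXA11 stood at 836.6, 603.4, 731.7 and 755.5, or 66.3% of DMSO (-0.60 ± 0.13, adjusted p = 0.00243). HOXA10 stood at 2197.1, 1544.0, 1821.8 and 1945.0, or 77.0% of DMSO (-0.39 ± 0.11, adjusted p = 0.0191). The HOXA10 call was lost without DMSO 3, Combo 2 or Combo 3 (highest adjusted p 0.0626).

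HOXA4 stood at 56.4, 43.4, 34.8 and 58.6 with Combo, below all DMSO libraries, and its difference of -0.88 ± 0.30 missed the threshold (limma adjusted p = 0.0527). It passed on the deposited log2 values (0.0231), with a pseudocount of 5 (0.042), with a filter at a mean of at least 10 (0.0436) and in a fit of these 2 groups alone (0.0181). It passed in 0 of the 8 refits that dropped a library (0.0592 to 0.156). HOXA9 stood at 1636.4, 1251.9, 1421.9 and 1346.0, so Combo 1 lay within the DMSO range (-0.18 ± 0.09, adjusted p = 0.198). HOXA2 stood at 25.4, 18.8, 25.5 and 30.7, across the DMSO range (-0.05 ± 0.26, adjusted p = 0.922). HOXA7 stood at 352.1, 334.6, 344.9 and 300.3, with 3 of its 4 libraries above the DMSO maximum and 1 within the range (0.22 ± 0.11, adjusted p = 0.184). Cell markers also moved here: with Combo the myeloid sum ran from 33370.4 to 43569.3, the B cell sum from 526.3 to 847.2, and the fibroblast sum (4 of 4 markers) from 240.9 to 306.2 against 88.3 to 151.5 in DMSO. The markers of a list did not move alike. Of the 10 myeloid markers, LYZ and MPO were called higher, ITGAM lower (-2.17 ± 0.34) and 7 did not pass. Of the 4 B cell markers, PAX5 was called lower (-1.02 ± 0.20) and CD79A higher (1.00 ± 0.27, lost without Combo 1 or Combo 3). Of the fibroblast markers COL1A1 alone was called (65.3 on average in DMSO and 201.4 with Combo), while COL1A2 (-0.57 ± 0.41), COL3A1 (0.08 ± 0.62) and PDGFRB (0.71 ± 0.54) did not pass. Their part in the HOXA result was not tested.

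Against iDOT1L, the comparison that asks what GSK126 adds to EPZ5676, HOXA7 rose. It was the 1 member called of 9, higher, while 1.11% of all genes were called higher. Its mean of 333.0 ± 23.0 with Combo stood against 218.6 ± 15.9 with iDOT1L, with no overlap between the libraries (0.61 ± 0.11, limma adjusted p = 0.00562), and it passed in each of the 8 fits without 1 library. With pairing HOXA2 was called too (0.81 ± 0.26, adjusted p = 0.033, or 0.102 without pairing), making 2 of 9 against 3.78% of all genes, and its groups did not overlap either (25.1 ± 4.90 against 14.2 ± 4.34). Such a gap, higher with Combo, held for 5.08% of all genes. HOXA4 differed by 0.75 ± 0.30 (adjusted p = 0.207) and HOXA6 by -0.49 ± 0.26 (0.353), with overlapping libraries. HOXA3, HOXA5, HOXA9, HOXA10 and HOXA11 differed by -0.15 to 0.12 with SEs of 0.09 to 0.22.

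Against iEZH2, the comparison that asks what EPZ5676 adds to GSK126, HOXA3, HOXA5, HOXA6 and HOXA11 were lower with Combo. These 4 of 9 stand against 1.72% of all genes called lower, and the libraries of HOXA3, HOXA4, HOXA5, HOXA6 and HOXA7, 5 of 9, did not overlap, as in 3.92% of all genes. HOXA3 differed by -1.07 ± 0.22 (limma adjusted p = 0.00758) and HOXA5 by -0.85 ± 0.18 (0.0105). HOXA6 differed by -1.11 ± 0.26 (0.0166), a call lost without iEZH2 1 or Combo 1 (highest adjusted p 0.0679). HOXA11 differed by -0.46 ± 0.13 with overlapping libraries (0.0442), a call lost in 6 of 8 fits without 1 library (iEZH2 1, 2 or 3, or Combo 2, 3 or 4, highest adjusted p 0.165). HOXA7 was lower with Combo than with iEZH2 in every library, and the difference of -0.23 ± 0.11 did not pass (adjusted p = 0.318). HOXA9 (-0.25 ± 0.09, adjusted p = 0.146) and HOXA10 (-0.31 ± 0.11, adjusted p = 0.134) passed in 1 of the 8 refits each, without Combo 1 (0.0484) and without iEZH2 4 (0.0262), respectively.

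Between the single compounds, 7 of 9 members were lower with iDOT1L than with iEZH2 and none was higher, while 3.06% of all genes were called lower. HOXA7 had the lowest adjusted p of the 9, with a difference of -0.83 ± 0.11 (limma adjusted p = 8.22e-05). HOXA4 differed by -1.50 ± 0.30 (0.00366) and HOXA2 by -1.23 ± 0.26 (0.00457). Against DMSO HOXA2 had missed the threshold with iDOT1L (0.0504), iEZH2 (0.53) and Combo (0.922). With iDOT1L it was called by pairing, by the filter at a mean of at least 10 and in 1 of the 8 refits. HOXA3 differed by -0.93 ± 0.22 (0.0141, lost without iDOT1L 3 or 4, highest 0.056) and HOXA5 by -0.75 ± 0.18 (0.016, lost without iDOT1L 2, iEZH2 1 or iEZH2 3, highest 0.0568). HOXA9 passed here at -0.38 ± 0.09 (adjusted p = 0.0134), a call lost without iEZH2 3 (0.0531). HOXA11 differed by -0.43 ± 0.13 (0.0419), lost in 6 of 8 refits (without iDOT1L 2, 3 or 4, or iEZH2 1, 2 or 3, highest 0.127). HOXA10 differed by -0.35 ± 0.11 and did not pass (0.0571). It was called with pairing (0.0114) and in 1 of the 8 refits, without iEZH2 4 (0.0119, highest of the 8 0.166). With pairing 8 of 9 were called lower, against 6.91% of all genes, and HOXA6 (-0.63 ± 0.26) passed in neither fit.

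The interaction, that is whether the effect of both compounds departs from the sum of the single effects on the log2 scale, passed for 0 of 9 members and 0 of 22331 genes in limma. At an unadjusted p under 0.05 the interaction held 848 genes (3.8%) and no member. The estimates ran from -0.26 ± 0.36 for HOXA6 to 0.88 ± 0.42 for HOXA4, the latter with the lowest unadjusted p of the members (0.052). For HOXA7 it was 0.15 ± 0.15 and for HOXA9 0.05 ± 0.13. With SEs of 0.13 to 0.42 at 4 libraries a group, small departures in either direction were not detectable, nor was one of 0.88 in HOXA4. The lack of calls therefore does not show that the 2 effects simply add.

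Ratios of adjoining members within a library, a measure added after the values were seen, are given as a description, as tests on them could hardly pass after adjustment. The log2 ratio of HOXA7 to HOXA6 was 1.14 ± 0.24 in DMSO, 1.61 ± 0.46 with iDOT1L, 1.82 ± 0.65 with iEZH2 and 2.71 ± 0.33 with Combo (mean ± SD, n = 4). With Combo all 4 libraries lay above all 4 of DMSO, a difference of 1.57 ± 0.20 (SE), and above all 4 of iDOT1L, by 1.09 ± 0.28. The log2 ratio of HOXA3 to HOXA2 was lower with Combo than with DMSO by 1.19, at 2.69 ± 0.33 against 3.88 ± 0.53. That of HOXA11 to HOXA10 was -1.36 ± 0.03 with Combo against -1.15 ± 0.07, and that of HOXA9 to HOXA7 was 2.08 ± 0.14 with Combo against 2.56 ± 0.15 with iDOT1L. Over 8 pairs and 4 comparisons, 6 of 32 exact two-sided permutation tests reached 0.0286, the smallest p that 4 against 4 libraries can give, and none passed after Benjamini-Hochberg adjustment (lowest 0.152). An adjusted p under 0.05 would have needed most of the 32 tests at that smallest p, so this outcome does not show that the ratios were unchanged. The reads shared with antisense RNAs, at 62.2% of HOXA7 words and 35.0% of HOXA6 words for HOXA-AS3, bear on the HOXA7 to HOXA6 ratio, and their part was not tested.

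**Figure D4:**
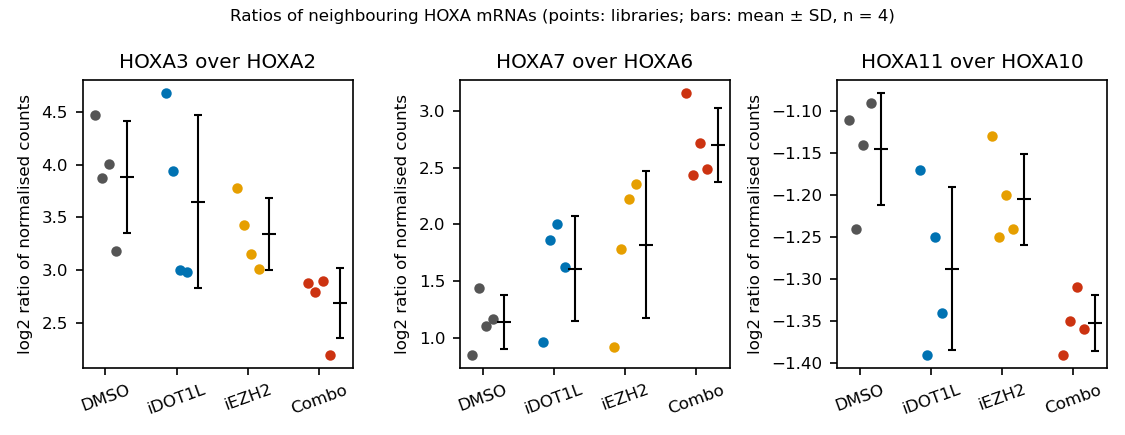
Log2 ratio of normalised counts (vertical axis, which does not start at 0) of 3 adjoining pairs in each library, by treatment, with the mean ± SD of 4. The Combo libraries of HOXA7 over HOXA6 lie above all DMSO libraries, and those of HOXA3 over HOXA2 and of HOXA11 over HOXA10 lie below them.

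HOXA13, at the posterior end of the cluster, fell with iDOT1L and with Combo. It went from 2137.0 ± 52.6 in DMSO to 1372.2 ± 96.4 with iDOT1L (-0.64 ± 0.10, limma adjusted p = 0.000306) and 1335.1 ± 61.0 with Combo (-0.68 ± 0.10, 6.25e-05). Of the 8 listed genes outside the cluster, SKAP2 (105.1 kb below HOXA2) stood at 1276.1 ± 277.9 in DMSO and 1159.4 ± 100.6 with Combo, and EVX1 (42.6 kb above) stayed at or under 3.03 normalised counts in every library. TAX1BP1 (539.2 kb above) was lower with iDOT1L (-0.32 ± 0.09, 0.0332), a call that failed in each of the 8 refits that dropped a library (highest 0.0995). HIBADH, CBX3, SNX10, JAZF1 and CREB5 did not pass against DMSO in any of the 3 treatments without pairing. Of the 9 listed genes in or beside the cluster, 3 were lower with iDOT1L than with iEZH2 (3.06% of all genes). They were HIBADH (-0.48 ± 0.09, limma adjusted p = 0.0014), HOXA13 (-0.51 ± 0.10, 0.0025) and TAX1BP1 (-0.38 ± 0.09, 0.0106), each called in all 8 refits. Pairing added CBX3 as lower there (-0.21 ± 0.07, limma adjusted p = 0.0222 against 0.0775), making 4 of 9 against 6.91% of all genes. HIBADH was also higher with Combo than with iDOT1L (0.36 ± 0.09, 0.0282, 1.11% of all genes), a call lost in 6 of 8 refits. With pairing, the fit of iDOT1L against DMSO called 3 of these 9 genes lower, against 6.53% of all genes. They were HOXA13, in the cluster itself, and TAX1BP1 and CBX3 outside it. For iEZH2 against DMSO the paired fit gave 1 rise among the 9, HIBADH, against 3.87% of all genes.

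The HOXB genes had few reads, and HOXB9 showed a pattern like that of HOXA7. HOXB9 averaged 37.6 ± 2.94 in DMSO, 11.8 ± 3.32 with iDOT1L, 89.5 ± 20.2 with iEZH2 and 47.9 ± 22.9 with Combo. It fell with iDOT1L (-1.63 ± 0.28, limma adjusted p = 0.000924), rose with iEZH2 (1.21 ± 0.28, 0.018, lost without DMSO 1 or DMSO 4, highest 0.0564) and was higher with Combo than with iDOT1L (1.87 ± 0.28, 0.00143). It was the 1 gene called of 9 HOXB genes tested with iDOT1L (3.17% of all genes were lower) and with iEZH2 (1.3% higher) against DMSO, and the other 8 averaged at most 31.6 normalised counts in any group. Of 10 HOXC and HOXD genes tested, HOXC10 (1.28 ± 0.23, 0.00076) and HOXC8 (1.19 ± 0.34, 0.0215, lost without DMSO 2 or Combo 3, highest 0.0724) rose with Combo against DMSO, where 7.22% of all genes were called higher, and none fell. With iEZH2 none of the 10 passed, and HOXC4 was called higher with pairing (0.32 ± 0.17, 0.0288 against 0.369).

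Of 9 TALE cofactors, PBX3, MEIS1 and MEIS2 fell with iDOT1L and with Combo and none rose, while 3.17% and 8.8% of all genes were called lower there. With pairing PKNOX1 was called lower too with iDOT1L (-0.42 ± 0.13, limma adjusted p = 0.00583 against 0.069), making 4 of 9 against 6.53% of all genes. MEIS1, the partner of HOXA9, averaged 1582.2 ± 127.7 in DMSO, 873.6 ± 122.4 after iDOT1L (limma adjusted p = 0.000379), 1480.7 ± 302.4 after iEZH2 (0.743) and 722.0 ± 58.3 after Combo (8.1e-06). PBX3 averaged 2327.5 ± 117.7, 999.1 ± 194.9, 2248.7 ± 410.1 and 1171.2 ± 198.5 in the same order. MEIS2 averaged 1740.1 ± 130.3, 1217.5 ± 198.8, 1686.2 ± 120.5 and 1080.9 ± 120.4. The 3 comparisons share their DMSO libraries. Of 17 genes reported as targets of HOXA9 or MEIS1 that were tested, 5 fell under iDOT1L, 2 under iEZH2 and 6 under Combo, where 1 rose. The shares of all genes called lower were 3.17%, 2.05% and 8.8% in that order, and 7.22% were higher with Combo. MEIS1 and PBX3, given above as cofactors, are on this list too and are among the falls with iDOT1L and with Combo. Of the falls with iDOT1L, 3 (PBX3, MEIS1 and FLT3) were left without DMSO 1, 3 or 4 or iDOT1L 3 or 4. With pairing 6 fell and 2 rose with iDOT1L (6.53% and 5.69% of all genes) and 3 fell with iEZH2 (5.89%). FLT3, a receptor tyrosine kinase, fell in all 3 (-0.61 ± 0.14, -0.82 ± 0.14 and -1.41 ± 0.14). Without pairing HOXA9 missed the threshold in each of the 3 (limma adjusted p = 0.0521, 0.764 and 0.198). Its part in the falls of FLT3 was not tested. LMO2, a transcriptional adaptor, fell with iEZH2 by 0.58 and with Combo by 0.46, while KIT, another receptor kinase, rose by 2.00 ± 0.39 with Combo.

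Of 18 genes of the KMT2A, menin, DOT1L and elongation machinery, 1 fell with iDOT1L, and 5 fell and 1 rose with Combo. Of all genes, 3.17% were lower with iDOT1L, and 8.8% were lower and 7.22% higher with Combo. Without DMSO 1, 2 of the 5 falls with Combo were left, and the rise was lost in 7 of 8 refits. MLLT10, a DOT1L partner, was the gene called in the first (-0.32 ± 0.09, limma adjusted p = 0.0382), a call lost in 6 of 8 fits without 1 library (DMSO 1, 2 or 4, or iDOT1L 2, 3 or 4, highest 0.117). With Combo MLLT10 fell by 0.41 and CDK9, the elongation kinase, by 0.33, while KMT2A (-0.68 ± 0.18) and AFF1 (-0.96 ± 0.25) lost their calls without DMSO 1 (0.0523 and 0.0501). Of 24 Polycomb genes, 2 rose with iEZH2 (1.3% of all genes) and none fell without pairing: CBX2 (0.70 ± 0.10, 0.0008) and PHC1 (1.12 ± 0.20, 0.00436), both subunits of Polycomb repressive complex 1. With iDOT1L 3 rose and 1 fell, against 3.08% and 3.17% of all genes. The rises came to 1 (CBX6) without DMSO 2 or without iDOT1L 3 or 4, and the fall was lost in 6 of 8 refits (without DMSO 1, 2 or 4 or iDOT1L 2, 3 or 4). With pairing 4 rose and 4 fell with iDOT1L (5.69% and 6.53% of all genes), and 5 rose and 1 fell with iEZH2 (3.87% and 5.89%). With Combo 6 rose and 3 fell, against 7.22% and 8.8% of all genes, among them PCGF2 (2.09 ± 0.33) up and JARID2 (-0.50 ± 0.08) down.

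Across the 16 libraries the members did not all rise and fall together. HOXA10 ran closest to HOXA11 (Pearson r = 0.973) and HOXA5 (0.925), and least with HOXA7 (0.306), while HOXA9 and HOXA10 had r = 0.881 over these libraries, which hold 4 treatments. Among 11083 genes outside the member list, those most like HOXA9 included KRT18 (r = 0.904), BTG3 (0.893), TCF7L2 (0.892) and TMEM65 (0.892). Those most like HOXA10 included DLX3 (0.935), CDKN1B (0.919) and CCL28 (0.915). DLX3, a homeobox gene outside the HOX clusters, averaged 439.8 in DMSO, 198.1 with iDOT1L, 398.1 with iEZH2 and 248.7 with Combo. These are descriptions over libraries that share their treatments.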

How the data were processed

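Paired-end RNA-seq reads were quantified with kallisto and scaled by the authors with DESeq2 on hg38, per the submitters' processing notes. Tool versions and the annotation they used are not stated. The deposited values were log2 values of variance-stabilised form, with one shared minimum of 6.28106 for a count of 0, and inverting that form gave normalised counts. These are not whole counts (57.5% to 62.1% of low values lay within 0.1 read of a whole number), so no count model was used. Of 22445 gene IDs, 20784 matched GENCODE release 29.

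Tested genes had a normalised count above 1 in 4 or more libraries. Limma 3.58.1 (R 4.3.3, trend and robust moderation) was fitted to log2 of that count plus 1, with a mean per group, all 16 libraries and 12 residual degrees of freedom. Benjamini-Hochberg adjustment ran over all genes of a comparison, with calls at an adjusted p under 0.05. The fitting step was tested on simulated data. Alternatives were other pseudocounts, filters and scalings, the deposited log2 values, a replicate block, fits of the compared groups alone, HOXA9 and HOXA10 summed, and leaving out each library.

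Residuals of same-numbered libraries correlated above 0.1 in every pair between iDOT1L and DMSO (0.187 to 0.583), between iEZH2 and DMSO (0.15 to 0.644), between iDOT1L and iEZH2 (0.211 to 0.692) and between iDOT1L and Combo (0.133 to 0.463), over 11167 genes with a mean of at least 100. There the blocked value is printed beside the reported comparison where it changes a call or a list's count. What the number stands for is not given in the labels.

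The members and gene lists were chosen with earlier results of these data known. Named genes are all members, up to 4 called genes of each list with the lowest adjusted p, the listed genes beside the cluster, and for likeness the 5 genes with the highest Pearson r with HOXA9 and with HOXA10 among those with a mean of at least 50. Some genes these rules would name are not reported here. The extraction protocol places RNA isolation after a sort. This differs from the treatment description, which was followed.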

Additional observations from a re-analysis of the deposited data

Results flagged for a closer look

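Of 36 sets of 4 libraries (9 members in 4 groups), 3 had a library whose gap to its nearest neighbour exceeded the critical value of Dixon's ratio of gap to range, and chance alone gives about 1 in 20. HOXA4 was lowest in iDOT1L 2, at 12.8 normalised counts against 33.7, 35.7 and 37.9 in the other libraries of the group (gap over range 0.836). HOXA6 was highest in iDOT1L 1, at 110.9 against 63.3, 56.4 and 63.3 (0.874). HOXA11 was lowest in DMSO 2, at 979.1 against 1137.3, 1140.9 and 1154.6 (0.901). The call for HOXA6 with iDOT1L depends on its library, as it passed without iDOT1L 1, while HOXA4 and HOXA11 with iDOT1L passed with and without theirs.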

How the results depend on the processing

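The replicate block raised the number of HOXA members called from 6 to 9 for iDOT1L against DMSO, from 1 to 2 for Combo against iDOT1L, from 5 to 6 (HOXA4, adjusted p = 0.0183 in limma) for Combo against DMSO, from 4 to 6 (HOXA9 0.0237, HOXA10 0.0324) for Combo against iEZH2 and from 7 to 8 for iDOT1L against iEZH2. It left 1 for iEZH2 against DMSO and 0 for the interaction. For Combo with DMSO and with iEZH2 the same-number correlations ran from 0.0378 to 0.474 and from 0.0806 to 0.518, so not every pair was above 0.1 and the block is given here alone. In the former it raised the Polycomb genes called lower from 3 to 7. Over all genes the block raised the calls from 1396 to 2729 (iDOT1L), 748 to 2180 (iEZH2) and 3579 to 5499 (Combo) against DMSO, and from 577 to 2240, 850 to 2136 and 1550 to 3185 in the order Combo against iDOT1L, Combo against iEZH2 and iDOT1L against iEZH2. A filter at a mean normalised count of at least 10 gave 9 members for iDOT1L against DMSO, and recentring gave 5. In fits of the compared groups alone 0 members were called for iEZH2 against DMSO, and 450, 511 and 1004 genes in iEZH2 against DMSO, Combo against iEZH2 and iDOT1L against iEZH2. Counts of members called ranged, without 1 library at a time, over 4 to 6 (iDOT1L), 0 to 1 (iEZH2) and 4 to 5 (Combo) against DMSO, 1 to 1 for Combo against iDOT1L, 2 to 5 for Combo against iEZH2 (2 without iEZH2 1), 4 to 8 for iDOT1L against iEZH2 (4 without iEZH2 3) and 0 to 0 for the interaction. Differences near 0 changed sign without some library. Against DMSO these were HOXA10 with iEZH2 (-0.15 to 0.02) and HOXA2 with Combo (-0.16 to 0.07). For Combo against iDOT1L they were HOXA3 (-0.27 to 0.07), HOXA5 (-0.21 to 0.02), HOXA10 (-0.04 to 0.13), HOXA11 (-0.10 to 0.06) and HOXA13 (-0.07 to 0.00). The interaction ran from -0.13 to 0.25 for HOXA3, -0.02 to 0.11 for HOXA9 and -0.42 to 0.00 for HOXA6. HOXA9 and HOXA10 summed as 1 gene passed with iDOT1L (-0.38, adjusted p = 0.0203) and with Combo (-0.30, 0.0361) against DMSO. The cause of these shifts was not tested. HOXA2 and HOXA4 had the fewest reads, which limits what could be seen for them.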
